A study of Mus musculus with 6 samples.

Results

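The 9 genes described here encode proteins that activate plasminogen at the cell surface or that start and restrain blood clotting, and they were chosen by name from the 22880 genes of the deposited table. They are the plasminogen activators Plau and Plat, the urokinase receptor Plaur, the protease inhibitors Serpine2 and Serpinb2, tissue factor (F3) with its inhibitor Tfpi, and the anticoagulant receptors Thbd and Procr. Their transcripts were measured by RNA sequencing in MC-38 cells, a mouse colon adenocarcinoma line labelled with green fluorescent protein, in 3 libraries of HIF-1α-KD cells and 3 libraries of Mock cells. HIF-1α is the oxygen-regulated subunit of hypoxia-inducible factor, and the HIF-1α-KD cells carried a stable knock-down of its gene, whereas Mock cells carried the control vector with a nontarget short hairpin RNA. Both groups had been transduced with the lentiviral plasmid pLKO.1-puro without prior passage in animals, grown as orthotopic tumors in the cecum wall of C57BL/6 J mice, and sorted as living GFP-positive cells that lacked CD45, a marker of leukocytes, and CD31, a marker of endothelium. The paper's methods name this plasmid for the knock-down of another gene, Traf6, and refer to earlier work for the HIF-1α-KD cells. The mice were not altered in HIF-1α, and neither the labels nor the methods give their age or state whether each library came from a separate tumor. The p-values therefore measure the spread between these libraries, which may in part be technical.

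Plasminogen is a liver-made zymogen that urokinase (Plau) or tissue-type plasminogen activator (Plat) cuts into plasmin, the protease that dissolves fibrin and degrades matrix. Urokinase works mainly while bound to its receptor, and serpins such as Serpinb2 (plasminogen activator inhibitor 2) and Serpine2 (protease nexin 1) inactivate the activators by forming covalent complexes with them. On the clotting side, tissue factor binds factor VII and starts coagulation, the product of Tfpi blocks that complex, and thrombomodulin (Thbd) with the endothelial protein C receptor (Procr) turns thrombin into an activator of the anticoagulant protein C. Tumor cells are known to expose tissue factor and to use the urokinase system in invasion.

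Between 19845852 and 30809138 reads per library fell on genes, and 12014 genes passed the filter for low counts. They were compared with limma on log2 of the normalized count plus 1, with positive log2 fold changes where HIF-1α-KD cells had more. Hif1a (ENSMUSG00000021109, chromosome 12, 73901375 to 73947530, GRCm38) had normalized counts of 6914, 5424 and 4945 in Mock replicates 1, 2 and 3, and knock-down replicates 1, 2 and 3 had 697.3, 3142 and 1928, without overlap of the groups (log2 fold change -1.82, limma, adjusted p = 0.219). Values of single libraries are given in this order of replicates throughout. All 10 genes of a reference list induced by hypoxia had an unadjusted limma p-value under 0.05 and lower counts in HIF-1α-KD cells, against 5.69% of all genes tested. Of these, 7 (Bnip3, Ankrd37, Slc2a1, Ndrg1, Pdk1, Pgk1 and Ldha) fell at a limma adjusted p-value under 0.05, against 0.383% of all genes, with log2 fold changes between -2.70 for Bnip3 and -1.15 for Ldha. Car9 (-2.93), Egln3 (-1.99) and Vegfa (-0.41) did not, with limma adjusted p-values of 0.0553, 0.210 and 0.294. This reference list, like the other lists, was chosen with earlier results of these data known. Of markers of other cells that a sorted tumor sample could hold, those of fibroblasts and pericytes summed to between 543 and 967 FPKM in Mock and between 414 and 701 FPKM in HIF-1α-KD libraries, mostly Dcn (log2 fold change -0.38). Of the 6 tested markers of this list, 2 were higher and 0 lower at an unadjusted limma p-value under 0.05, against 7.04% and 5.69% of all genes. The 2 were Rgs5 (1.15) and Pdgfrb (0.59). Those of smooth muscle summed to at most 8.06 FPKM and those of platelets to at most 11.3 FPKM, with Gp1ba at 0 reads in every library. The part of such cells in the counts of the 9 genes was not tested.

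Of the 9 genes, 7 passed the filter for low counts. Only F3 changed at a limma adjusted p-value under 0.05, being lower in HIF-1α-KD cells, and 0 of the 7 were higher. Among all genes tested, 0.391% passed this threshold, 0.383% as lower and 0.00832% as higher. The same single gene of the 7 passed an unadjusted p-value under 0.05, by limma, edgeR and DESeq2, against 12.7% of all genes in limma (5.69% lower and 7.04% higher). F3 was also the only one without overlap of the groups, which held for 19.2% of all genes (8.75% lower and 10.4% higher), and the only one lower by at least 2-fold, which held for 2.22% of all genes. A log2 fold change below 0 was found for 5 of the 7 genes and for 47.3% of all genes. A single gene of 7 is close to the background share for the unadjusted threshold and for the overlap, so these counts are not a result about the 9 genes as a set. Serpine2 and Serpinb2 had too few reads to pass the filter and were not tested. The plot of normalized counts shows every library of every gene.

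**Figure D1:**
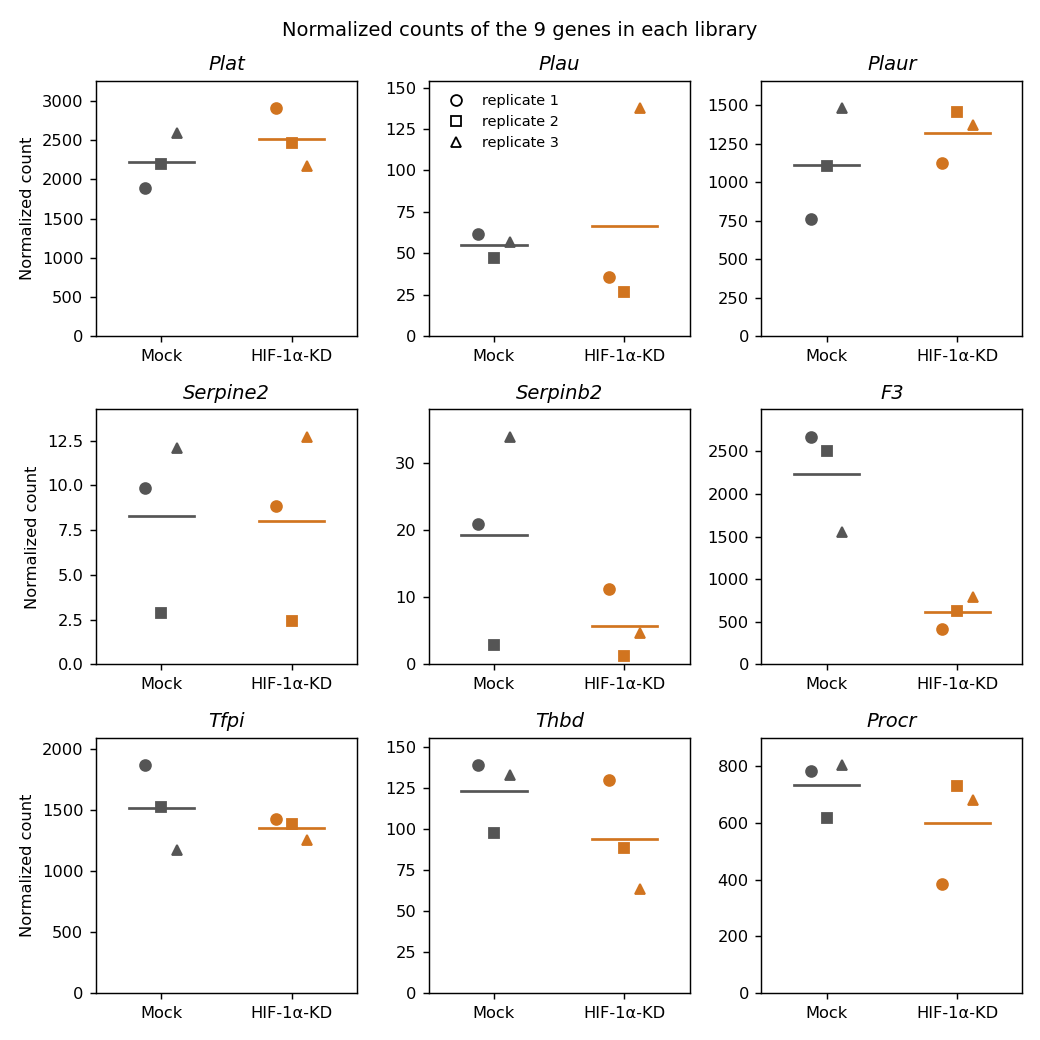
Normalized counts (vertical axes, each starting at 0) of the 9 genes in the 3 Mock and 3 HIF-1α-KD libraries, with symbols for the replicate number and a horizontal line at the group mean. F3 is the only gene whose HIF-1α-KD libraries, between 420.7 and 791.2, all lie below its Mock libraries, between 1549 and 2670.

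F3 (ENSMUSG00000028128, chromosome 3, 121723537 to 121735048, plus strand) encodes tissue factor, the membrane receptor that initiates the extrinsic pathway of coagulation. Mock cells had 2670, 2500 and 1549 normalized counts of it, against 420.7, 631.9 and 791.2 after the knock-down. Replicate 3 was the lowest Mock and the highest knock-down library, and no library crossed between the groups. Mean counts were 2240 ± 604 for Mock and 615 ± 186 for HIF-1α-KD libraries (SD, n = 3 each). This is a log2 fold change of -1.87 (SE 0.28, adjusted p = 0.0327 by limma), a 3.66-fold lower count, with a 95% interval of the log2 value from -2.51 to -1.24. By p-value F3 ranked 38 of the 12014 genes, and by size it had the log2 fold change of rank 58 from the lowest. It is 1 of 46 genes lower at that threshold. When single libraries were left out, the log2 fold change stayed between -2.12 and -1.62, but the adjusted p-value of limma stayed under 0.05 only without HIF-1α-KD replicate 1 (0.0481). It was 0.169 without Mock replicate 1, 0.173 without Mock replicate 2, 0.0907 without Mock replicate 3, 0.104 without HIF-1α-KD replicate 2 and 0.0585 without HIF-1α-KD replicate 3, and with scaling by library size alone it was 0.0575.

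The 250 bases before the start of F3 are shown because this is the only one of the 7 tested genes that changed at an adjusted p-value under 0.05, and those of Plaur for comparison, because they hold the same motif although its count did not pass the test. The motif is the site of AP-1, a transcription factor known to act on protease genes. The sequences are from RefSeq (GRCm38.p6), which held windows for 6 of the 9 genes and none for Plau, Plat and Thbd. RefSeq starts can differ from the starts in the gene positions given here. For example, the Serpine2 window lies inside the gene by those positions, and the Procr window runs past the start of its gene. Capitals mark the letters TGANTCA of the AP-1 site, a pattern that reads the same on both strands.
F3, chr3:121723287-121723536, plus strand: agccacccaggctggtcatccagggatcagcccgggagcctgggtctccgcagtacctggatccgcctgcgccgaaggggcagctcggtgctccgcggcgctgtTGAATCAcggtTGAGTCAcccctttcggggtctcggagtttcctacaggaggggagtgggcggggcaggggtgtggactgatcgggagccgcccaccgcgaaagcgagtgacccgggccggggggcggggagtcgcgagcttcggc
Plaur, chr7:24462233-24462482, plus strand: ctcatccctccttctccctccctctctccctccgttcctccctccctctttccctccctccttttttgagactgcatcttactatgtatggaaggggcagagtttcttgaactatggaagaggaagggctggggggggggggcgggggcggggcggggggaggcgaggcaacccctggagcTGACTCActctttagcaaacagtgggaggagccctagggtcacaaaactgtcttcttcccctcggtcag
The F3 window held 2 AP-1 sites, with their first bases at positions -146 and -135, counted from -1 for the last base of the window, and the Plaur window held 1, at -69. Windows of 4 of the 6 genes held at least 1, those of Procr and Serpinb2 being the others. Such a site was found in 6.75% of the 32851 RefSeq windows of this length. The core of the hypoxia response element, searched as ACGTG and GCGTG on both strands, was found in 38.6% of all windows and in none of the windows of the 6 genes, which says only that these letters are not in these stretches. The GC box GGGCGG, found on either strand in 32.7% of all windows, occurred 3 times before F3 and 3 times before Plaur.

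Tfpi (ENSMUSG00000027082, chromosome 2, 84432855 to 84476775, minus strand) encodes tissue factor pathway inhibitor, which shuts down the complex of tissue factor and factor VII. The Mock libraries held 1870, 1526 and 1173 normalized counts and the knock-down libraries 1431, 1386 and 1258. The Mock libraries spread more widely than the HIF-1α-KD libraries, which all lay inside the Mock range. Tfpi had a log2 fold change of -0.14 (SE 0.19, limma, adjusted p = 0.794) with a 95% interval from -0.57 to 0.29, which does not reach the -1.87 of F3.

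Tissue factor was therefore also set against its inhibitor within each library, on the FPKM scale, which corrects for the length of the gene. F3 had 2.96, 3.39 and 2.73 times the FPKM of Tfpi in Mock, but 0.608, 0.944 and 1.30 times in knock-down libraries. In each Mock library F3 was the more abundant transcript, whereas in 2 of the 3 HIF-1α-KD libraries Tfpi was. The mean log2 ratio was 1.59 ± 0.16 for Mock and -0.14 ± 0.55 for HIF-1α-KD libraries (SD, n = 3 each), a difference of -1.73, or a 3.32-fold lower ratio. The exact permutation test gave p = 0.1 (two-sided), the smallest value that 3 libraries against 3 allow, and 0.2 after adjustment over the 2 ratios tested. When single libraries were left out the difference was between -1.99 and -1.44. The difference restates the lower F3 count and adds no independent support to it. These are ratios of transcripts, and neither protein was measured.

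**Figure D2:**
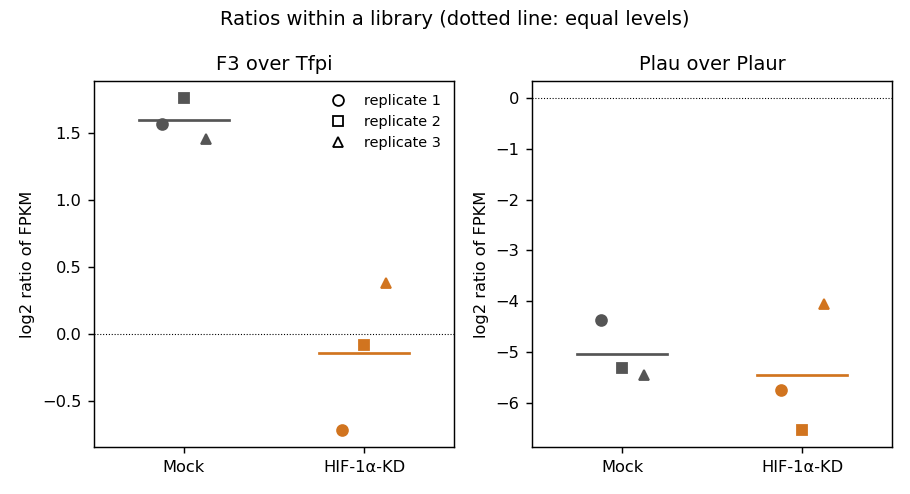
Log2 ratios of FPKM within each library (vertical axes) in Mock and HIF-1α-KD cells for F3 over Tfpi and for Plau over Plaur, with group means as lines and equal levels as a dotted line. The log2 ratio of F3 to Tfpi lies between 1.45 and 1.76 in Mock and between -0.72 and 0.38 in HIF-1α-KD libraries, and that of Plau to Plaur overlaps between the groups.

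Thbd (ENSMUSG00000074743, chromosome 2, 148404466 to 148408188, minus strand) encodes thrombomodulin, the thrombin receptor that redirects thrombin toward protein C. It was scarce, at 139.1, 97.61 and 132.9 normalized counts in Mock cells and at 130.3, 88.73 and 63.53 in knock-down cells. HIF-1α-KD replicate 1 lay within the Mock range, so the groups overlapped. Its log2 fold change of -0.43 (SE 0.32, limma, adjusted p = 0.619) had a 95% interval from -1.16 to 0.31.

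Procr (ENSMUSG00000027611, chromosome 2, 155751117 to 155755471, plus strand) encodes the endothelial protein C receptor, which presents protein C to the complex of thrombin and thrombomodulin. Mock libraries had 783.0, 618.2 and 803.3 normalized counts, to be set against 384.5, 730.2 and 679.2 in the knock-down. HIF-1α-KD replicate 1 alone lay below every Mock library. For Procr the log2 fold change was -0.34 (SE 0.26, limma, adjusted p = 0.619), with a 95% interval from -0.93 to 0.25. Without HIF-1α-KD replicate 1 it was -0.05 (limma adjusted p = 0.944).

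Thbd and Procr are best known from endothelium, so 8 endothelial markers were read beside them. Their summed FPKM was between 5.44 and 6.71 in Mock and at most 5.57 in HIF-1α-KD libraries. The highest of the 8 in every library was Cdh5 (between 2.09 and 5.58 FPKM), with a log2 fold change of -0.84 (limma, adjusted p = 0.294). Its normalized counts were lower in every HIF-1α-KD than in every Mock library, which held for 8.75% of all genes. Of the 3 tested markers it was the only one at an unadjusted limma p-value under 0.05, against 5.69% lower of all genes. The other 2 had log2 fold changes above 0, with 1.26 for Tek and 0.26 for Pecam1, and overlapping groups. None of the 8 was at 0 in all libraries. Kdr was at most 0.107 FPKM, Emcn at most 0.0492 FPKM and Tie1 at most 0.0761 FPKM in any library. Their part in the counts of Thbd and Procr was not tested. In a bulk library, fewer cells of a type and less RNA per cell cannot be told apart.

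Among the activators, Plat (ENSMUSG00000031538, chromosome 8, 22757727 to 22782844, plus strand) encodes tissue-type plasminogen activator, the main fibrin-dependent activator of blood. Normalized counts were 1887, 2199 and 2596 for Mock and 2908, 2471 and 2174 for knock-down libraries. The groups overlapped, and the highest value was that of HIF-1α-KD replicate 1. With a log2 fold change of 0.18 (SE 0.17, limma, adjusted p = 0.703), Plat had a 95% interval from -0.21 to 0.57.

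Plau (ENSMUSG00000021822, chromosome 14, 20836660 to 20843385, plus strand) encodes urokinase, the activator that acts at the cell surface. It had 61.55, 46.89 and 56.77 normalized counts in Mock cells but 35.39, 26.38 and 137.5 in knock-down cells, from 22 to 119 reads per library. HIF-1α-KD replicates 1 and 2 lay below all Mock libraries and HIF-1α-KD replicate 3 above all of them. Plau had a log2 fold change of -0.11 (SE 0.57, limma, adjusted p = 0.951), with a 95% interval from -1.41 to 1.19. Without HIF-1α-KD replicate 3 it was -0.82 (SE 0.37, limma, adjusted p = 0.448), and it was above 0 without HIF-1α-KD replicate 1 (0.14) or 2 (0.35) and in edgeR (0.25) and DESeq2 (0.26).

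The library with the highest Plau count also had the highest summed level of leukocyte markers, although cells positive for CD45 had been sorted out. The summed FPKM of 9 leukocyte markers was 103.6, 115.4 and 110.9 for Mock, and it was 71.2, 84.6 and 363.1 for the knock-down, which placed HIF-1α-KD replicate 3 above the other libraries and HIF-1α-KD replicates 1 and 2 below the Mock libraries. Lyz2, a lysozyme gene of macrophages and neutrophils, made up most of it, with 294.6 FPKM in HIF-1α-KD replicate 3 and between 54.49 and 80.62 in the other libraries, and no marker of this list was at 0 in every library. Cd79a went the other way, with 3.435 FPKM in HIF-1α-KD replicate 3 and between 4.276 and 9.009 in the other libraries. Cd3e was at 0 in HIF-1α-KD replicate 3, and the remaining markers of the list were highest there. Plau is also made by macrophages. The part of such cells in the Plau counts was not tested.

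**Figure D3:**
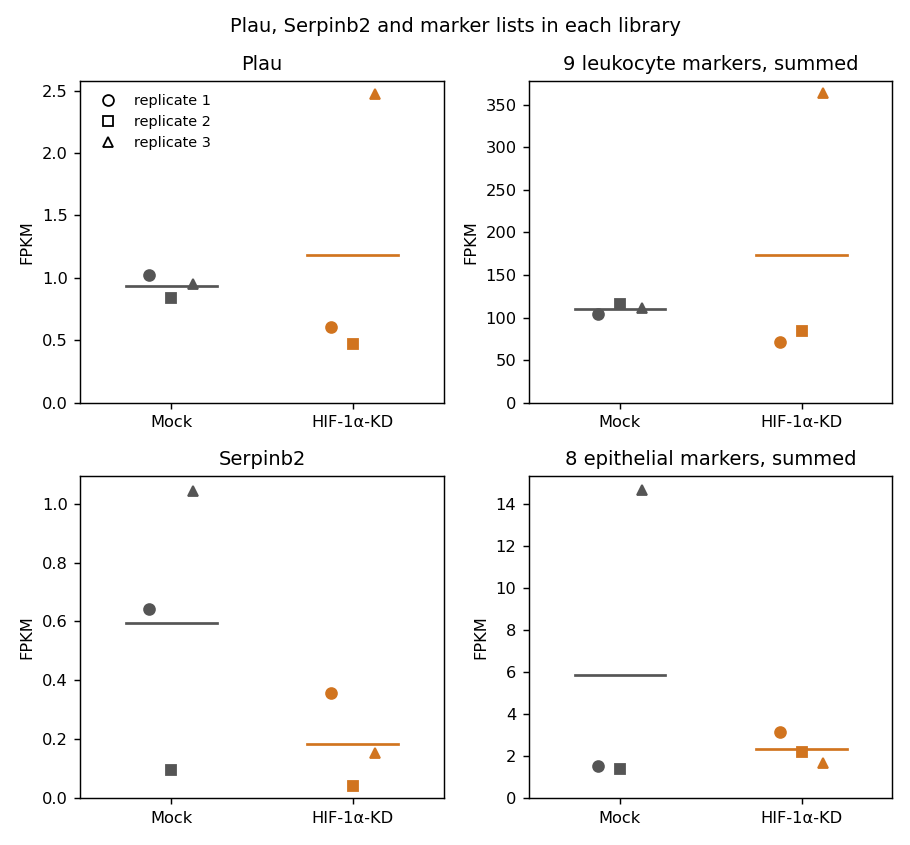
FPKM (vertical axes, starting at 0) of Plau, of 9 leukocyte markers summed, of Serpinb2 and of 8 epithelial markers summed in the 3 Mock and 3 HIF-1α-KD libraries, with symbols for the replicate number and lines at the group means. HIF-1α-KD replicate 3 is highest for Plau (2.48) and for the leukocyte markers (363.1), and Mock replicate 3 is highest for Serpinb2 (1.04) and for the epithelial markers (14.6).

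Plaur (ENSMUSG00000046223, chromosome 7, 24462484 to 24475968, plus strand) encodes the membrane-anchored receptor that holds urokinase at the cell surface. Mock libraries spread from 759.6 over 1105 to 1481 normalized counts, and knock-down libraries had 1128, 1459 and 1371. Mock libraries held both the lowest and the highest value. Its log2 fold change was 0.29 (SE 0.24, limma, adjusted p = 0.659), and the 95% interval ran from -0.26 to 0.84. It was 0.52 without Mock replicate 3 and 0.04 without Mock replicate 1, with limma adjusted p-values of 0.417 and 0.976.

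The receptor transcript was far more abundant than that of its ligand in every library. Plau reached 0.0485, 0.0254 and 0.0229 of the FPKM of Plaur in Mock, and 0.0188, 0.0108 and 0.0600 of it in knock-down libraries, and HIF-1α-KD replicate 3 had the highest ratio. The mean log2 ratio was -5.04 ± 0.59 for Mock and -5.44 ± 1.26 for HIF-1α-KD libraries (SD, n = 3 each, exact permutation test, two-sided p = 0.7, also after adjustment over the 2 ratios). Of the summed FPKM of both activators, Plat held between 93.6% and 98.9% in each library.

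The inhibitors Serpine2 and Serpinb2 were close to the limit of detection. Serpine2 (ENSMUSG00000026249, chromosome 1, 79794197 to 79861180, minus strand), a serpin of thrombin and of both activators, had 8, 3 and 10 reads in Mock cells and 11, 2 and 11 reads in knock-down cells. These are normalized counts of 9.85, 2.87 and 12.1 against 8.85, 2.40 and 12.7, with replicate 2 the lowest of either group. Values of this size carry a large counting error, and no difference between the groups was detectable at this depth.

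Serpinb2 (ENSMUSG00000062345, chromosome 1, 107511423 to 107535478, plus strand) encodes a mostly intracellular serpin that inhibits urokinase. It overlaps the annotated gene Serpinb10 on the same strand over 6476 bases, so reads there cannot be assigned with certainty. Mock libraries held 17, 3 and 28 reads and knock-down libraries 14, 1 and 4, or normalized counts of 20.9, 2.87 and 33.8 against 11.3, 1.20 and 4.62. Mock replicate 2 lay below HIF-1α-KD replicates 1 and 3, so the groups overlapped. Mock replicate 3, the library with the most Serpinb2, also had the highest summed FPKM of 8 epithelial markers, 14.6 against 1.38 to 3.13 in the other libraries, although Mock replicate 1 had 1.53 FPKM of these markers beside the second highest Serpinb2 count. Their part in the Serpinb2 counts was not tested. Of the defining markers of colon epithelium, Cdx2 was at most 0.0419 FPKM in any library, Epcam was at most 0.141 FPKM outside Mock replicate 3, and Cdh1 was between 0.394 and 1.31 FPKM.

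By level per length, the 9 genes fell into an abundant and a scarce group. In Mock cells the mean FPKM was 77.9 ± 21.8 (SD, n = 3) for F3, 35.2 ± 5.62 for Plat, 31.8 ± 10.2 for Plaur, 27.3 ± 2.86 for Procr and 25.5 ± 5.76 for Tfpi. The scarce genes were Thbd at 1.32 ± 0.20, Plau at 0.937 ± 0.096, Serpinb2 at 0.593 ± 0.476 and Serpine2 at 0.185 ± 0.104 (all SD, n = 3). F3 lay above Plat in every Mock library, whereas the ranges of Plat, Plaur, Procr and Tfpi overlapped from each gene to the next, as did those of Plau, Serpinb2 and Serpine2.

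In HIF-1α-KD cells F3 was no longer first. Plat had a mean of 41.2 ± 5.09 FPKM (SD, n = 3) and Plaur of 39.2 ± 5.92 FPKM, with overlapping ranges. F3, at 22.3 ± 7.15 FPKM, ranked behind Tfpi (23.7 ± 1.21) and Procr (23.3 ± 7.69), and the ranges of these 3 genes overlapped. Tissue factor thus went from the most abundant of the 9 transcripts to the fifth, within the spread of its neighbours.

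**Figure D4:**
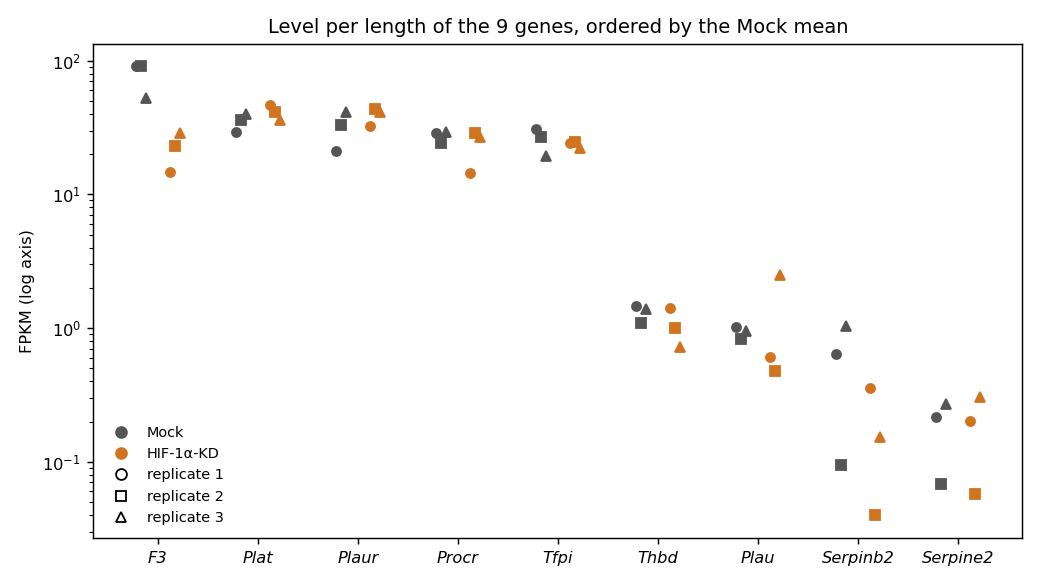
FPKM (vertical log axis) of the 9 genes, ordered by their Mock mean, in the 3 Mock (grey) and 3 HIF-1α-KD (orange) libraries, with symbols for the replicate number. F3 lies between 52.7 and 90.5 FPKM in Mock and between 14.8 and 29.0 FPKM in HIF-1α-KD libraries, and Thbd, Plau, Serpinb2 and Serpine2 stay below 2.5 FPKM in every library.

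Of the genes of these pathways listed by function, 49 others are described, and 20 of them passed the filter for low counts. At an adjusted p-value under 0.05, 0 of the 20 changed by limma and 0 by edgeR, which gave 0.391% of all genes as lower and 0% as higher. DESeq2 gave 3 of the 20 as lower (Eno1, Anxa2 and S100a10) and 0 as higher, against 1.56% and 0.799% of all genes with an adjusted p-value in that test. An unadjusted limma p-value under 0.05 was reached by 9 of them, 4 lower and 5 higher, against 12.7% of all genes. In edgeR 4 were lower and 2 higher at that threshold, against 6.33% and 6.09% of all genes. In DESeq2 4 were lower and 4 higher, against 6.19% and 6.78%. Their median log2 fold change was -0.18, that of the 7 tested genes described above was -0.14, and that of all genes was 0.02. The plot of fold changes shows them with their intervals.

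Among 17 other genes of plasminogen activation and fibrinolysis, 9 were tested, and their adjusted p-values lay between 0.107 and 0.837. At an unadjusted p-value under 0.05, 4 were lower and 2 were higher, against 5.69% lower and 7.04% higher of all genes. The groups did not overlap for 5 of the 9, against 19.2% of all genes. Eno1, a glycolytic enzyme that also binds plasminogen, had a log2 fold change of -0.84 (limma adjusted p = 0.107). Anxa2 (-0.62) and S100a10 (-0.57), which form the annexin A2 complex that binds plasminogen and tissue-type activator, had limma adjusted p-values of 0.258 and 0.245. S100a10 had normalized counts of 15130, 10950 and 12760 for Mock against 9143, 8639 and 8126 for knock-down cells. For Anxa2 they were 62560, 43590 and 60490 against 34900, 38100 and 33840. For both genes every HIF-1α-KD library lay below every Mock library. Plgrkt, a membrane receptor of plasminogen, was the last of the 4 (-0.48), and the 2 higher genes were the collagen receptor Mrc2 (0.73), known to associate with the urokinase receptor, and Igf2r (0.58), these 2 named after their values were seen. Plg itself had 0 reads in every library, and a count of 0 allows up to 3 reads in a library.

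Of 19 coagulation factors and genes for their processing, 8 were tested, of which 3 were higher and 0 lower at an unadjusted limma p-value under 0.05, against 7.04% and 5.69% of all genes. Ggcx, the carboxylase that completes vitamin K-dependent clotting factors, had normalized counts of 1118, 1349 and 1370 for Mock against 1899, 2092 and 1775 for knock-down cells, with a log2 fold change of 0.59 (limma adjusted p = 0.219). Lman1, a cargo receptor of factors V and VIII, had a log2 fold change of 0.30 and Ano6, the scramblase that exposes phosphatidylserine, one of 0.38, with limma adjusted p-values of 0.377 and 0.381. The groups did not overlap for Ggcx and Lman1, 2 of the 8 tested, against 19.2% of all genes, and overlapped for Ano6. The fold change farthest from 0 was that of F13a1, the catalytic subunit of the fibrin-crosslinking factor XIII, with 606.9, 627.8 and 126.8 normalized counts in Mock cells, 154.4, 57.56 and 486.3 in knock-down cells and overlapping groups (log2 fold change -1.15, limma adjusted p = 0.587), named after its values were seen. Of the 19 genes 5, among them the 3 fibrinogen chains Fga, Fgb and Fgg, had no read in any library. F7, the partner of tissue factor, had between 0 and 8 reads.

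Of 9 other anticoagulants, 2 were tested, and neither passed an unadjusted p-value under 0.05. Anxa5, which binds exposed phosphatidylserine, had the highest level of them, with a log2 fold change of -0.27 (limma adjusted p = 0.460). Every HIF-1α-KD library lay below every Mock library for Anxa5, 1 of the 2 tested, which held for 8.75% of all genes. Of the 4 protease-activated receptors only F2r, the thrombin receptor, was tested, with normalized counts of 2739, 2169 and 2026 against 1089, 1825 and 2314 (log2 fold change -0.46, limma adjusted p = 0.512).

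**Figure D5:**
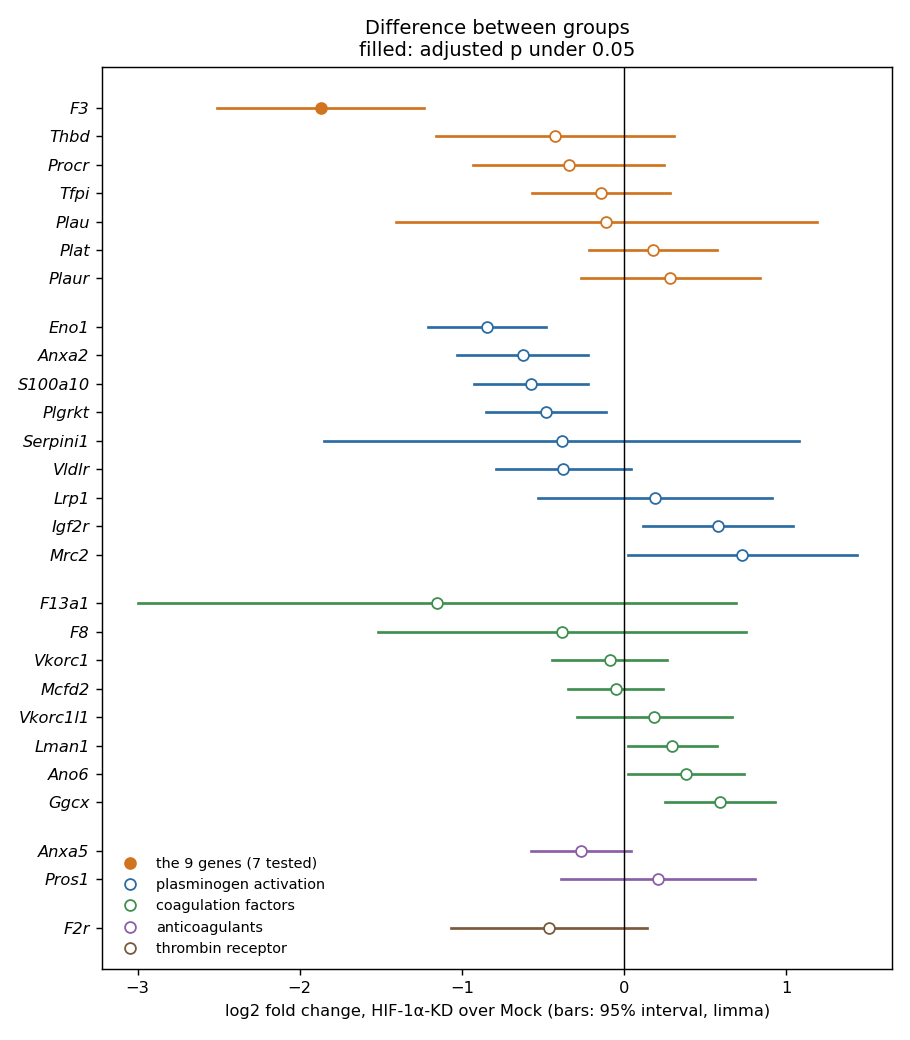
Log2 fold change of HIF-1α-KD over Mock cells (horizontal axis) with its 95% interval from limma for the 7 tested genes of the 9 and for the 20 tested genes of the other lists, colored by list, with a filled symbol for an adjusted p-value under 0.05. F3, at -1.87, is the only filled symbol, and the intervals of the other 6 genes of its group include 0.

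Genes with a pattern like that of F3 across the 6 libraries were sought by Pearson's correlation of log2 normalized counts over all 12013 other genes tested. The 3 most alike were Celf2 (r = 0.995), Hoga1 (r = 0.988) and Pdk1 (r = 0.987), with log2 fold changes of -1.56, -1.07 and -1.57. Of all genes, 67 had a correlation above 0.95 with F3. For Thbd, the next of the 9 genes by p-value, Msl3 (r = 0.990), Ndufa3 (r = 0.987) and Dhrs1 (r = 0.985) were the most alike, and 26 genes had a correlation above 0.95. The 6 points share the difference between the groups and the scaling of each library, so these values describe likeness only.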

How the data were processed

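RNA of sorted MC-38 cells was sequenced in 3 Mock and 3 HIF-1α-KD libraries, grouped by the titles in their labels. The authors aligned single-end reads with STAR and counted them with featureCounts. The submitters' processing notes name GRCm38 and edgeR, whereas the paper's methods name a human assembly and DESeq2. The setting for strand was not given in the sources used here. The authors deposited normalized counts, a signal made by dividing each gene's count by 1 factor per library. The authors also deposited FPKM per length of the gene. The authors' log2 ratio, p-value and false discovery rate compare the groups and were not used.

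Multiplying by the factor recovered whole reads (within 0.1 read) for 100% of values up to 300 reads. Genes were filtered with filterByExpr of edgeR 4.0.16 (minimum count of 10) and compared with limma 3.58.1 (trend, pseudocount of 1, two-sided, Benjamini-Hochberg over 12014 genes). Fold changes are on the log2(normalized count + 1) scale, which understates those of low genes. Intervals of 95% cover the spread between libraries, and the limit of 3 reads for a count of 0 covers counting error only. The genes and lists were chosen with earlier results of these data known. All 9 genes were named, and of each other list every gene at an adjusted p-value under 0.05, otherwise up to 4 genes by p-value among those at an unadjusted p-value under 0.05, or else the most abundant gene. Mrc2, Igf2r, F13a1, F7, Plg and the fibrinogen genes were named outside this rule, after their values were seen, and the plot of fold changes shows all tested genes of these lists that are reported. A further gene of these lists is not reported here. Tests were checked on simulated data. Alternatives were edgeR, DESeq2 1.42.0, scaling, filter, pseudocount, a replicate block and leaving out each library. Positions are from GENCODE M21. R 4.3.3, Python 3.11.15, scipy 1.17.1 and matplotlib 3.10.9 were used.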

Additional observations from a re-analysis of the deposited data

How the results depend on the processing

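F3 was lower in HIF-1α-KD cells under all 14 alternatives, with a log2 fold change between -2.12 and -1.62, and its adjusted p-value was under 0.05 in 7 of them. With scaling by library size alone its value was -1.81 (limma adjusted p = 0.0575). The samples were not treated as pairs, because no source says what the replicate numbers share and deviations from the group means correlated at only -0.139, -0.123 and 0.0228 between libraries of the same number, and with a replicate block the value was -1.87 (limma adjusted p = 0.116). Over all genes, the block left 0 higher and 0 lower genes at an adjusted p-value under 0.05 in limma, with 717 higher and 607 lower at an unadjusted p-value under 0.05. Against 1 higher and 46 lower genes, DESeq2 gave 96 and 187, edgeR 0 and 47, and leaving out a library between 0 and 6 higher and between 0 and 32 lower genes. Unadjusted, 846 higher and 683 lower genes in limma stood against 732 and 761 in edgeR and 1085 and 524 with scaling by library size. With single libraries left out, the 9 genes held between 0 and 1 higher (Plaur, lacking Mock replicate 3) and between 1 and 2 lower genes (Serpinb2 as well, which passed the filter lacking Mock replicate 2) by unadjusted p under 0.05. Among all genes in limma, 767 of 12188 were higher at that threshold without Mock replicate 3, and 627 of 12180 were lower without Mock replicate 2. The log2 fold change of Plau turned to 0.25 in edgeR and 0.26 in DESeq2 and lay between -0.82 and 0.35 with a library left out, and that of Tfpi lay between -0.32 and 0.020. The log2 ratio of Plau to Plaur differed by -0.40, and by -1.10 to 0.14 with a library left out. The causes were not tested. Depth limits Serpine2 and Serpinb2, which had at most 28 reads in a library.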
